A study of Drosophila melanogaster with 6 samples.

Results

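The regions described here are all peaks of Su(H)-Dam over Dam alone in medulla neuroblasts of the *Drosophila* larval optic lobe. There were 2916 peaks in the lists of the 2 Su(H)-Dam replicates, 1455 in replicate 1 and 1461 in replicate 2, out of 5895 replicate peaks in the series, and 972 reproducible peaks out of 1956. The rest were peaks of Ey-Dam, a fusion to the homeodomain protein Eyeless. Members were chosen by factor alone, and no score was used to choose them. Su(H)-Dam larvae carried UAS-Su(H)-Dam, Ey-Dam larvae UAS-Ey-Dam and Dam-alone larvae UAS-Dam. All 3 groups also carried SoxN-Gal4, UAS-Dcr2 and tubG80ts over the CyO balancer, so Dicer-2 overexpression and the temperature-sensitive Gal80 were common to them. Crosses were kept at 25 °C, eggs were collected for 8 h and held at 18 °C for 3 days, and the fusions were induced at 29 °C for 72 h before climbing larvae of the third instar were dissected. Each of the 6 libraries, 2 per group, pooled the optic lobes of about 100 brains, and the *SoxN*-Gal4 driver, which is active in medulla neuroblasts, decided which cells carried the enzyme. The labelled cell type could not be checked with markers, because no expression was measured. Su(H) made by the endogenous gene was present beside the fusion.

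Su(H) is the DNA-binding protein of the Notch pathway. When a ligand such as Delta binds Notch, the receptor is cleaved, its intracellular domain enters the nucleus, and with Su(H) and the coactivator Mastermind it switches on target genes. Without the signal, Su(H) sits with Hairless, Groucho and CtBP and holds the same genes off. The best known targets are the genes of the Enhancer of split complex, E(spl), which encode basic helix-loop-helix repressors and small Bearded family proteins. In the medulla, Notch signalling acts in neuroblasts, which express a succession of temporal transcription factors. In DamID, a bacterial adenine methylase fused to the protein marks GATC motifs near the places where it sits, and methylated fragments are sequenced and compared with the marks left by free Dam. A peak is therefore a run of GATC fragments rather than a binding site, and marks accumulate over the whole induction.

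Su(H) recognises the 8-letter consensus YGTGRGAA, which stands for the words CGTGAGAA, CGTGGGAA, TGTGAGAA and TGTGGGAA on either strand. At several E(spl) genes 2 sites face each other, an arrangement known as the Su(H) paired site. The sequences of 4 such pairs under reproducible peaks, and of the stretch of *Cph* that holds both sites of a short peak with a high score, are shown because the results on sequence return to them. They are read 5′ to 3′ on the forward strand of dm6, from the RefSeq copy of that assembly, and capitals mark the consensus sites.
E(spl)mdelta-HLH and E(spl)mgamma-HLH, 3R:25999543-25999602: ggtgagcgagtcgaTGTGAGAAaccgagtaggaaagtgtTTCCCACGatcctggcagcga
lncRNA:CR43644 and E(spl)m3-HLH, 3R:26020737-26020796: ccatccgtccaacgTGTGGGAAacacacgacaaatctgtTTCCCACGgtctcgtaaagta
E(spl)m4-BFM, 3R:26024844-26024903: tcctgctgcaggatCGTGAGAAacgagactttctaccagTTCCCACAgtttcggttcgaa
E(spl)m8-HLH, 3R:26040002-26040061: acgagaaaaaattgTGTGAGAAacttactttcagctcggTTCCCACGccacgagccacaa
Cph, X:7169860-7170119: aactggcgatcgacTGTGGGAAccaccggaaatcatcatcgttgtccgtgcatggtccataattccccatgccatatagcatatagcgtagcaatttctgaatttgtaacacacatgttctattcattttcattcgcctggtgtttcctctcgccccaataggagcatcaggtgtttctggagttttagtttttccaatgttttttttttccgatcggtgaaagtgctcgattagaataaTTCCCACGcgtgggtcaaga
In each of the first 4 windows, 17 bases lay between the sites. The middle of the pair by *E(spl)mgamma-HLH* was at -278 bp from that gene's start, that of the pair by *E(spl)m4-BFM* at -295 bp, that by *E(spl)m8-HLH* at -208 bp and that by *E(spl)m3-HLH* at -1056 bp, within an exon of lncRNA:CR43644. In the *Cph* window, which lies in an intron, the sites also face each other but stand far apart.

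Peak scores, which the peak caller bases on the log2 ratio of Su(H)-Dam to Dam alone, ran between 2.03 and 5.59 in replicate 1 and between 1.2 and 5.28 in replicate 2. The interquartile range was 2.75 to 3.65 in replicate 1 and 2.49 to 3.43 in replicate 2. Peaks were between 275 and 11224 bp long in replicate 1 and between 233 and 15013 bp in replicate 2, and the median peak of each list spanned 5 GATC fragments. Fragments on the 6 chromosome arms had a median length of 196 bp, which sets the resolution. Su(H) peaks covered 1.81% of the arms in replicate 1 and 1.77% in replicate 2. Their median GC content was 42.5% and 43.1%, against 42.2% for the arms. Longer peaks had slightly higher scores. For this, each peak was given the mean of its best overlapping scores in both replicate lists. Where only 1 list had a peak, that score was taken. The Spearman correlation of this mean with length across peaks was 0.171 in the replicate 1 list (n = 1455) and 0.243 in the replicate 2 list (n = 1461). Peaks of one library share its normalisation, so these correlations are descriptions.

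The false discovery rate of a peak followed the number of fragments much more closely than the score. Its Spearman correlation with fragments was -0.938 in replicate 1 and -0.928 in replicate 2, against -0.418 and -0.461 with the score. No peak of either replicate list had fewer than 3 fragments. Peaks of 3 fragments entered replicate 1 only at scores of 2.90 or more and replicate 2 only at 2.62 or more, whereas peaks of 4 fragments began at 2.06 and 1.77. The median score of peaks with 3 fragments was 3.49 and 3.21, higher than the 2.85 and 2.58 of those with 4. From 4 fragments upward the median score climbed with size, to 3.86 and 3.71 for peaks of 11 to 20 fragments.

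Of the replicate 1 peaks, 1239 overlapped a replicate 2 peak (85.2%), and 1216 of the replicate 2 peaks overlapped one of replicate 1 (83.2%). The overlaps formed 1246 pairs. In 804 pairs (64.5%) both ends were at the same base, and in 367 more (29.5%) 1 end was. Peaks are built from whole GATC fragments. Shared bases made up 70.0% of all bases covered by either list. Within pairs the score was lower in replicate 2 in 888 cases (71.3%), with a median difference, replicate 2 minus replicate 1, of -0.20 and an SD of 0.393. The median shift was negative on every large arm, between -0.27 on 3L and -0.15 on 3R. Overlap depended on score: among replicate 1 peaks it was 67.9% in the lowest quartile and 96.4% in the highest, and among replicate 2 peaks 64.2% and 98.9%. The 216 peaks found only in replicate 1 had a median score of 2.70, and the 245 found only in replicate 2 one of 2.43.

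**Figure D1:**
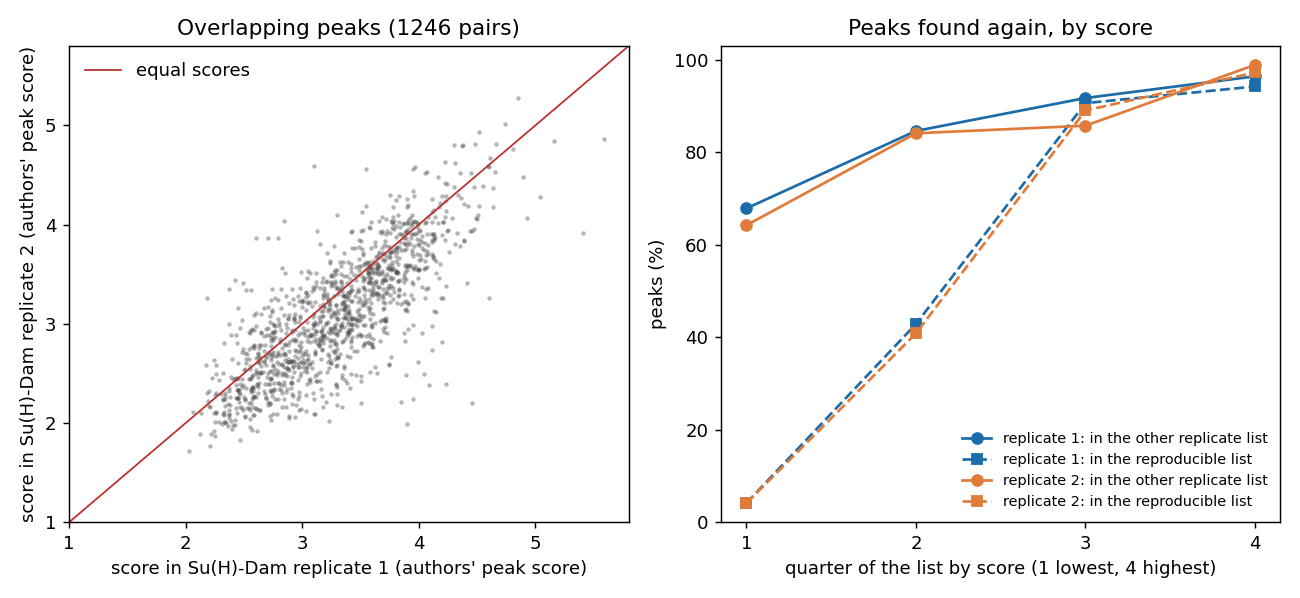
Scores of Su(H)-Dam peaks in the 2 replicates, as deposited, for overlapping pairs and by score quartile. Most of the 1246 pairs lie below the line of equal scores, and the share of peaks found in the other list climbs with the score quartile.

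A high score did not secure overlap in single cases. Replicate 1 alone held a peak of 4.14 at *cher*, which encodes filamin, and one of 3.98 at *hbn*, a homeodomain temporal factor of the medulla. It also held one of 4.03 at *E2f1*, the cell cycle transcription factor. Other peaks of replicate 2 did lie within 1000 bp of *hbn* (2 peaks, highest 2.84) and of *E2f1* (4 peaks, highest 4.79). Replicate 2 alone held peaks of 3.70 at *mld*, 3.63 at *rdx* and 3.60 by *Ube3a*. The *E2f1*, *rdx* and *Ube3a* peaks were in the reproducible list and the *cher*, *hbn* and *mld* peaks were not.

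The reproducible list was made by the irreproducible discovery rate (IDR) method from looser peak lists, called at a false discovery rate of 0.1, and its 972 peaks had IDR scores of 542 to 716. Of these, 787 (81.0%) overlapped peaks of both stricter replicate lists, 35 a peak of replicate 1 only, 56 one of replicate 2 only, and 94 neither. The 94 were short, with a median of 937.5 bp and 3 fragments, against 1551 bp over the whole reproducible list. Only 4.12% of the lowest score quartile of replicate 1 entered the reproducible list, against 94.2% of the highest, and for replicate 2 it was 4.10% and 97.3%. The IDR score did not order peaks as their scores did: its Spearman correlation with the mean of both replicate scores was -0.284.

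The peak with the highest mean score was at *Ric*, a Ras-related GTPase, and *Asph* on 2R, 16109720 to 16111816, with 5.59 in replicate 1 and 4.86 in replicate 2. A 941 bp peak at *CG13920* and an antisense RNA on 3L scored 4.85 and 5.28. A peak over the divergent starts around *epsilonCOP*, a COPI coat subunit, and *Phf5a*, a splicing factor, on 2L scored 5.16 and 4.84. Next came a 5074 bp peak on 2R, 13562997 to 13568070, with 4.74 and 5.01, in which no gene lay within 1000 bp. It held 10 consensus sites, more than any other peak. The *Cph* peak printed above, 356 bp long, scored 4.81 and 4.76. *Cph* encodes a zinc finger factor related to vertebrate BCL11. A peak at *ptc*, the Hedgehog receptor, scored 4.66 and 4.81, one in an intron of *Delta* 4.52 and 4.93, and one by *ph-d*, a Polycomb group gene, 5.04 and 4.28. Among the 10 peaks with the highest mean scores, the replicates differed most at one by lncRNA:CR43862 on X, with 5.41 in replicate 1 and 3.91 in replicate 2.

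The longest reproducible peak covered 15012 bp and 40 fragments of *Raf*, the MAP kinase kinase kinase, on X, with scores of 3.70 and 3.44. A peak of 11223 bp lay 1708 bp from *dmrt99B* on 3R, with 4.39 and 3.84. Long peaks also lay in *brat*, a brake on neuroblast self-renewal (8131 bp), and in *simj*, a subunit of the NuRD complex (8095 bp), where replicates gave 3.50 and 2.20. One of 7982 bp joined *tap*, a neurogenin relative, and *Cad74A*. In all, 25 reproducible peaks were longer than 5 kb.

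Peaks were spread over all arms. The reproducible list had 6.93 peaks per Mb on 2L, 6.56 on 2R, 8.11 on 3L, 7.33 on 3R, 7.31 on X and 5.93 on the small chromosome 4, where 8 peaks lay. On chromosome 4, replicate 1 had 16.3 peaks per Mb (22 peaks), the highest of its arms, and replicate 2 had 9.64 (13 peaks). In the reproducible list the density on X was 1.01 times that of the autosomal arms. In windows of 1 Mb the median was 6 reproducible peaks, and the most, 30, lay in the first megabase of 3L. Su(H) peaks were missing from long stretches, of which the longest were 3.60 Mb of 2R (2107838 to 5711664), 3.12 Mb of 3R (1162660 to 4285330) and 2.11 Mb of 3L (24742767 to 26849212), towards the centromeric ends. Whether reads map there as they do elsewhere was not tested.

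By position, 45.4% of reproducible peaks had their midpoint in an intron and 37.7% between genes. Coding sequence made up 5.49% of their bases, against 17.1% of the arms, and 3′ UTRs 1.93%, against 4.94%. 5′ UTRs made up 5.30%, against 3.06%. Among the 441 intronic midpoints, 294 (66.7%) were in a first intron, whereas first introns hold 45.8% of intronic bases. A transcript start lay in 287 reproducible peaks (29.5%). In windows of 1551 bp centred on the peaks, a start was found in 28.7%, against 19.4% of tiles of the same length laid over the arms. The median distance between midpoint and nearest start was 2064.5 bp, against 3326 bp for tiles. Nevertheless, 200 peaks (20.6%) had no gene within 1000 bp, and 13.1% lay more than 10000 bp from any start. Of the peaks whose midpoint lay within 1000 bp of a start, 166 were upstream and 168 downstream. Within 500 bp, 10.7% of peaks lay upstream and 10.9% downstream, against 6.11% and 7.47% of tiles. Between 500 and 1000 bp, 6.38% of peaks lay on either side, against 3.96% of tiles upstream and 5.99% downstream.

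**Figure D2:**
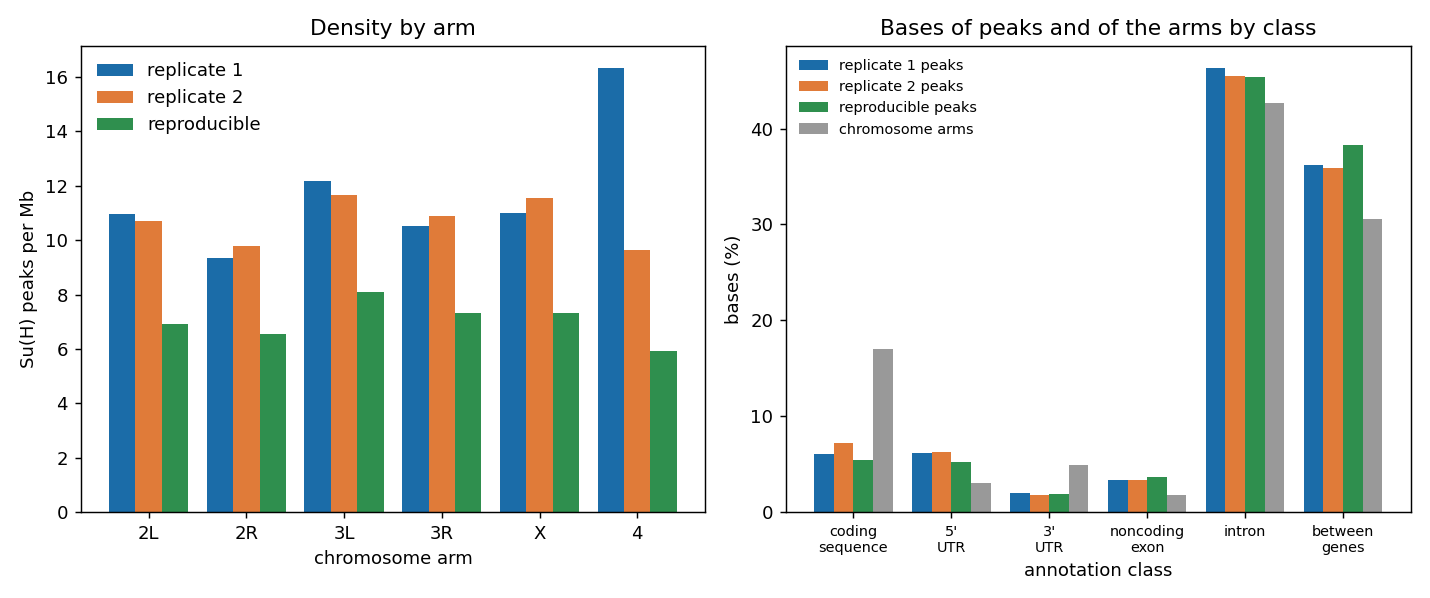
Density of Su(H)-Dam peaks on each chromosome arm, per Mb, and share of peak bases in each annotation class beside the share of arm bases. Coding sequence is 5.49% of reproducible peak bases against 17.1% of the arms, and introns are 45.3% against 42.7%.

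Su(H) peaks occurred in groups. Joining neighbours less than 10000 bp apart gave 657 groups of reproducible peaks, of which 492 were single peaks, 94 were pairs and 71 held 3 or more. The 71 groups held 292 peaks (30.04%). In the replicate lists 35.6% and 33.1% of peaks were in such groups. The median gap between neighbours was 32860.5 bp, and 84 of 966 gaps (8.70%) were within 1000 bp. Even spacing would put neighbours 137737 bp apart. Randomly placed peaks would also have a median gap below that figure, and random placement was not tested. Peaks in groups of 3 or more had a median score of 3.63 in replicate 1 and 3.46 in replicate 2, single ones 3.50 and 3.28, and their median length was 1697.5 bp, against 1502.5 bp.

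The largest group was the E(spl) complex on 3R, 25995979 to 26041516, with 16 reproducible peaks in 45.5 kb and 50.6% of its bases inside them. Replicate scores there lay between 3.01 and 4.31 in replicate 1 and between 3.10 and 4.62 in replicate 2. Of the *E(spl)* helix-loop-helix genes, which encode the repressors, the highest peak stood downstream of *E(spl)mbeta-HLH*, with 4.31 and 4.62, and the one upstream of *E(spl)m3-HLH* scored 4.16 and 4.48. The peak over *E(spl)mgamma-HLH* scored 3.93 and 3.90, those upstream and downstream of *E(spl)m5-HLH* 3.17 and 3.42 and 4.07 and 3.57, that over *E(spl)mdelta-HLH* 3.73 and 3.56, that over *E(spl)m8-HLH* 3.57 in both, and that over *E(spl)m7-HLH* 3.05 and 3.53. Among the Bearded family genes, whose products inhibit Neuralized, a peak upstream of *E(spl)malpha-BFM* scored 4.13 and 4.15, the peak over the start of *E(spl)m4-BFM* 3.01 and 3.23, that over its other end, which reaches *E(spl)m3-HLH*, 3.61 and 3.60, and the one at *E(spl)m2-BFM* 3.42 in replicate 2 with no peak in replicate 1. 10 of the 16 held a transcript start. No other group held as many peaks. Of 38 consensus sites in the complex, 24 were inside reproducible peaks, 1.04 per kb, against 0.622 per kb in the gaps.

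The second group lay by *stg*, the Cdc25 phosphatase that starts mitosis, on 3R, 29255370 to 29294485. It held 12 reproducible peaks, every one of them called in both replicates. Scores were 2.97 to 4.61 in replicate 1 and 3.21 to 4.67 in replicate 2. A peak ended at 29271794 and the next began at 29271795, so the count is of called peaks and not of separate binding regions. Only the first peak of the group touched *stg*, with 3.54 and 3.60 over its start. The next 10 lay in the gene-poor stretch beside it with no gene within 1000 bp, and the highest of these, 29286232 to 29287154, scored 4.61 and 4.67. By *SoxN*, a Sox-domain factor, on 2L, 7 reproducible peaks scored 2.90 to 4.59 in replicate 1 and 2.61 to 4.59 in replicate 2 and covered 58.3% of 40.2 kb. None touched the gene: the nearest ones lay 1933 bp after its end and 2051 bp before its start. By *opa*, a Zic-type zinc finger gene and medulla temporal factor, 7 peaks spanned 42.2 kb of 3R, with 2.98 to 4.11 and 3.08 to 3.95.

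**Figure D3:**
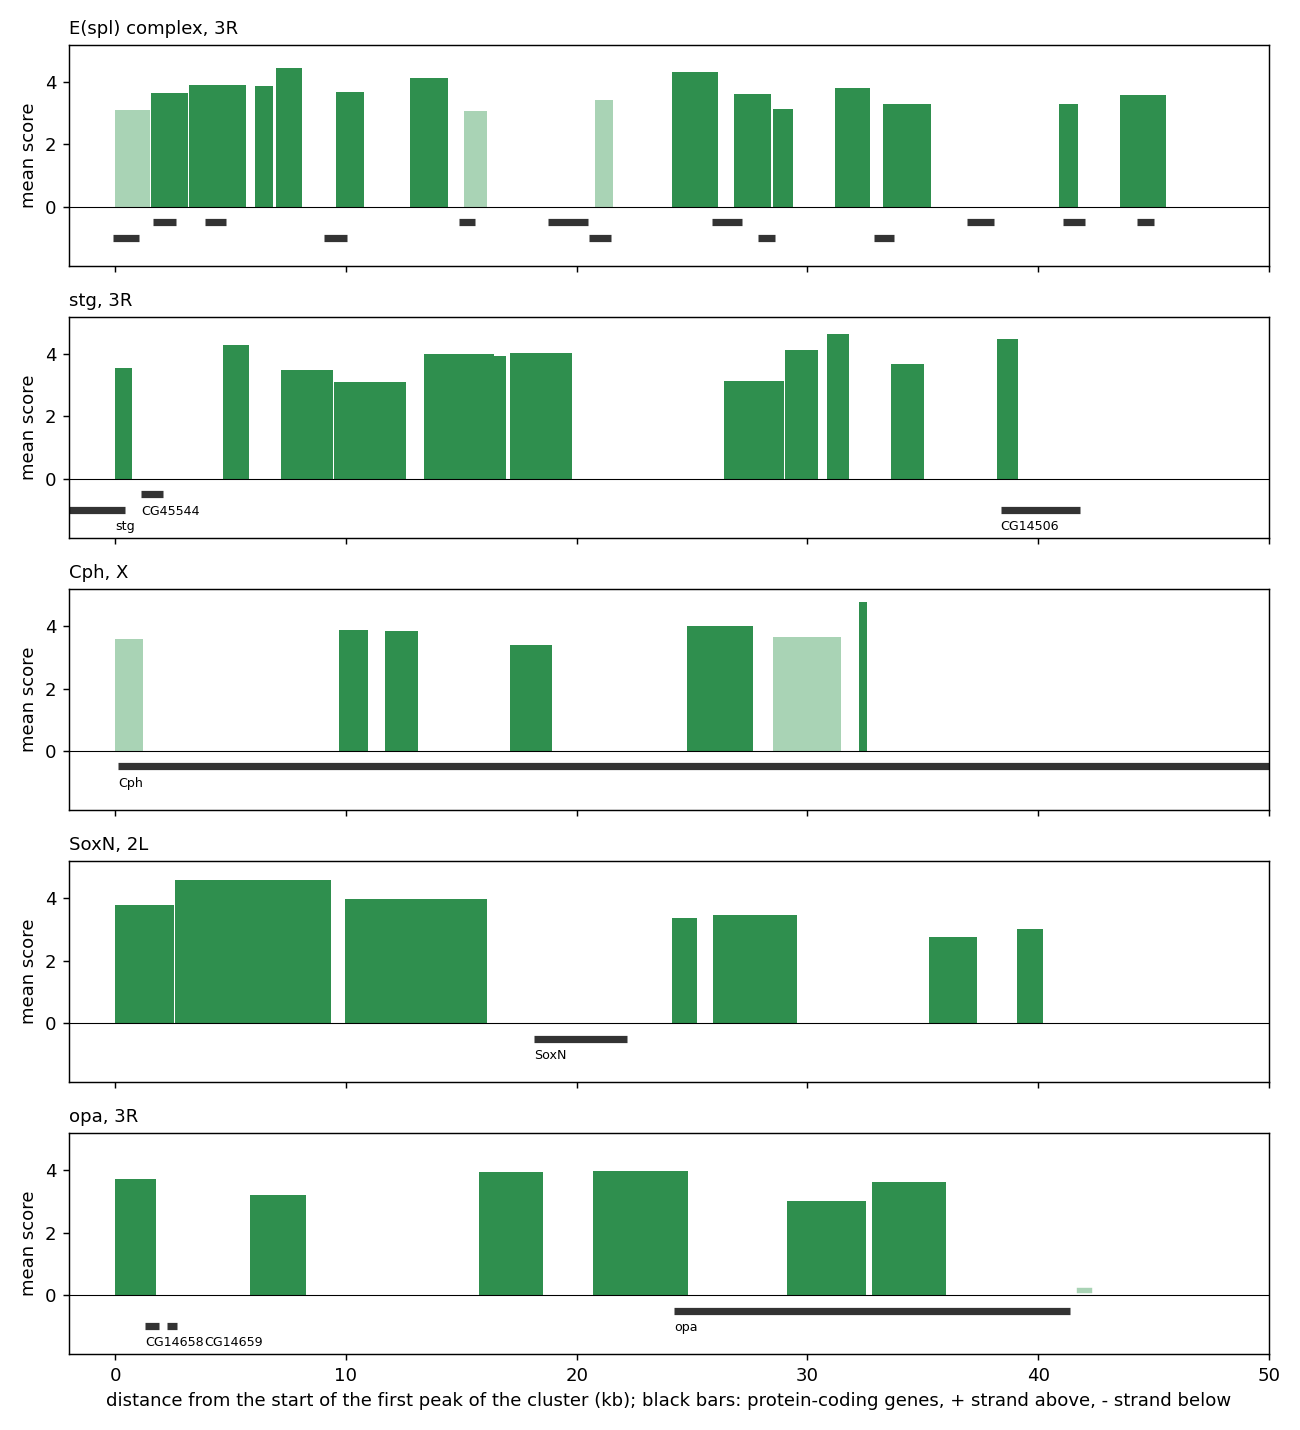
Reproducible Su(H)-Dam peaks of the 5 largest groups drawn to scale in kb from the first peak, with height showing the mean replicate score. Pale bars have a score in only 1 replicate list, and flat dashes in neither. Black bars below each line are protein-coding genes, not named in the E(spl) panel. The E(spl) group holds 16 peaks in 45.5 kb and the *stg* group 12 in 39.1 kb.

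Genes were counted as carrying a peak when one overlapped them or lay within 1000 bp. This held for 992 of 18164 annotated genes in the reproducible list (5.46%), for 1410 in replicate 1 (7.76%), for 1494 in replicate 2 (8.23%) and for 1235 in both replicates (6.8%). Among protein-coding genes, long ones carried a reproducible peak more often: 2.79% of those under 2 kb did, 11.9% of those between 10 and 20 kb and 36.1% of those of 100 kb or more. Per 10 kb of gene the count fell to 0.0540 peaks in the longest class, against 0.0950 in the shortest. 158 genes had at least 2 reproducible peaks, 51 at least 3 and 4 at least 5. *Cph* had 11 in 104.2 kb, with 12 in replicate 1 and 11 in replicate 2. *jing*, a zinc finger gene, had 9, and *CG32816* 6. Of the next genes, *Delta*, *E2f1*, *Egfr*, *mamo*, *Mur2B* and *opa* had 4 each, as did *neur*, the ubiquitin ligase that lets Delta be endocytosed. Some of these counts are shared: *CG32816* shared peaks with *ase* and *l(1)sc*, and the 3 peaks of *br* also counted for *Mur2B*. The noncoding lncRNA:CR44357, which overlaps *Cph* on the opposite strand so that peaks there count for both, had 10. lncRNA:CR45037, lncRNA:CR44206, lncRNA:CR43334 and lncRNA:CR32773 had 3 each, and those of lncRNA:CR45037 lay in the E(spl) complex. Among protein-coding genes with at least 3 peaks, *E(spl)mdelta-HLH* carried most for its length, 3 peaks at a gene of 1.013 kb. The longest genes with no peak in any list were *Pzl* (709.4 kb), *lovit* (434.0 kb) and *DIP-lambda* (379.1 kb). *Pzl* and *lovit* lie within the empty stretches of 3R and 3L given above, and *DIP-lambda* lies before the first peak of 2R, at 1220099.

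**Figure D4:**
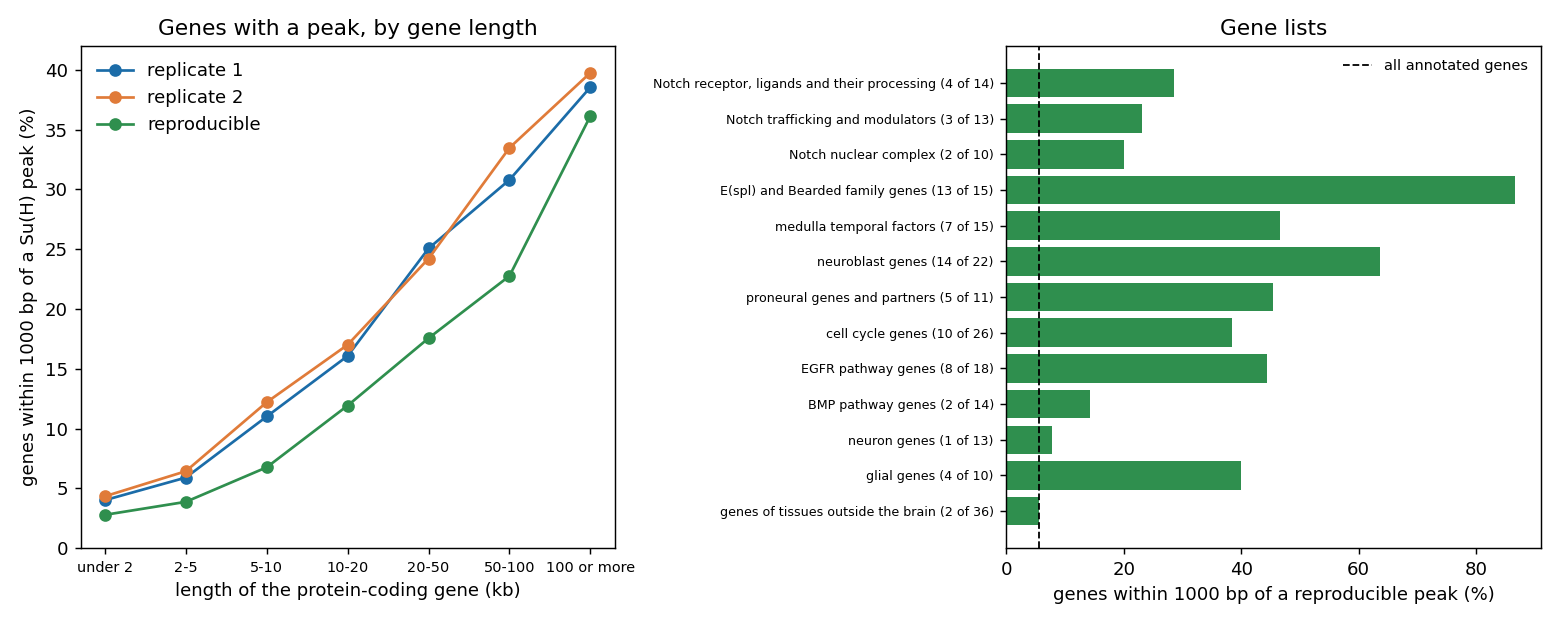
Share of genes with a Su(H)-Dam peak within 1000 bp by gene length, in each peak list (lines, protein-coding genes), and share of each gene list with a reproducible peak (bars), with a dashed line at the 5.46% of all genes. The line for reproducible peaks climbs with length, to 36.1% at 100 kb or more, and the E(spl) and Bearded list has the longest bar, 86.7%.

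Lists of genes were compared with the 5.46% of all genes. Among receptor, ligands and their processing enzymes, 4 of 14 had a reproducible peak: *N* (highest 4.39 and 4.21), *Delta*, *Ser* (3.53 and 3.29) and the glycosyltransferase *fng* (3.66 and 4.04). Of 13 trafficking genes, 3 did: *neur* (4.52 and 4.19), *numb*, which antagonises Notch (4.01 and 3.84), and *bib*. Of the 10 nuclear complex genes, *insv* had one (3.95 and 2.99) and *gro* shared that of *E(spl)m8-HLH*. The E(spl) and Bearded family genes stood at 13 of 15 (86.7%), and their median length was 0.957 kb. The median number of reproducible peaks per gene was 1 in this list and in that of neuroblast genes, and 0 in the other 11 lists and over all genes. Outside the complex, *Tom* had a peak (3.87 and 3.81) and *Ocho* shared one with *Brd* (3.74 and 3.36, with 4 consensus sites). *E(spl)m6-BFM* and *BobA* were without. Neighbours share peaks in that complex, so its genes are not independent of one another.

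For the 15 medulla temporal factors the count was 7, with 10 in both replicates. Of all genes, 6.8% had a peak in both replicates. The highest scores among them were those of *D*, a Sox-domain factor (4.15 and 3.63), *opa* (4.0 and 3.95), *hth* (3.98 and 3.91) and *ey* itself (3.93 and 3.86), which had 4 reproducible peaks. For 22 neuroblast genes the count was 14, with 18 in both replicates. Among the neuroblast genes were *grh* (4.93 and 4.07), *chinmo* (4.64 and 4.37), both transcription factors that set neuroblast state or timing, and the zinc finger genes *klu* (4.50 and 4.06) and *ham* (4.05 and 3.81). Of 26 cell cycle genes 10 had a peak, with *E2f1* (4.37 and 4.79), *CycE* (4.13 and 3.90), *pnut* (3.90 and 4.02) and *CycA* (3.88 and 3.80) highest. 8 of 18 EGFR pathway genes had a peak, among them *Egfr* (4.47 and 4.38) and *Raf*. So did 5 of 11 genes in the list of proneural genes and their partners, including *emc* (4.24 and 3.94) and *ato* (3.91 and 4.02). Of 14 BMP pathway genes 2 had a reproducible peak (14.3%), although 5 (35.7%) had one in both replicate lists, against 6.8% of all genes. Of 13 genes of differentiated neurons 1 did (7.69%), and of 36 genes of tissues outside the brain 2 did (5.56%), against 5.46% of all genes. Their median lengths were 26.8 kb and 1.64 kb. Among all protein-coding genes, 17.6% of those between 20 and 50 kb and 2.79% of those under 2 kb had a reproducible peak. The neuron gene was *Gad1*, in a peak that overlapped neither replicate list, and the genes from elsewhere were *Sgs5* (3.22 and 3.23) and the opsin gene *Rh4*, whose peak (4.64 and 4.18) also lay at *sinah*. 4 of 10 glial genes had one: *Eaat1* (3.56 and 3.47), *nrv2* (3.72 and 3.03), *gcm* (3.33 and 2.97) and *repo*, with the lowest scores of the 4 (2.87 and 2.96). The neuroblast genes, with a median of 23.3 kb, were also long. Gene length differs between these lists and was not matched, so no list was tested against the rest.

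A UAS transgene can itself give signal at the gene it was built from. *Su(H)* had 1 peak in each replicate, at 2.40 and 2.65, above 7.22% and 32.6% of the peaks of those lists. The first lay wholly in coding sequence (401 of 401 bp) and the other largely so (1112 of 1235 bp), neither was reproducible, and the Ey-Dam lists had none there. The part of the transgene in these peaks was not tested. *Dcr-2*, which all groups overexpressed, had 2 in each replicate and none reproducible, and Ey-Dam lists had peaks there too. *SoxN*, after which the driver is named, had no peak within 1000 bp in any Su(H)-Dam or Ey-Dam list. Whether the driver transgene adds signal to the peaks that flank *SoxN* was not tested.

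Consensus sites were denser inside peaks than outside. Reproducible peaks held 428, 0.238 per kb, against 0.104 per kb outside them, a ratio of 2.29, and the replicate lists gave 2.01 and 2.04. CGTGGGAA had the highest ratio of the 4 words, at 2.95, followed by CGTGAGAA at 2.58, TGTGGGAA at 2.28 and TGTGAGAA at 1.73. In windows of 1551 bp, 31.6% of reproducible peaks held a site, against 14.9% of all tiles of that length, and 7.0% held at least 2, against 1.27%. Density was 0.333 per kb in the first 250 bp from the midpoint and 0.265, 0.208 and 0.156 in the next bins. By score quartile, low to high, the share of windows with a site was 20.9%, 24.7%, 24.5% and 34.3% in replicate 1 and 18.3%, 25.5%, 26.6% and 35.3% in replicate 2, so the step was largest into the top quartile in both lists. Peaks with a site had median scores of 3.65 and 3.43, and those without 3.53 and 3.29. Even so, 659 of the 972 peaks (67.8%) held no match. A match is letters, and its absence from a window says nothing about the protein.

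Facing pairs were searched for after single sites had been counted. With at most 32 bases between the sites, the arms held 24 such pairs, of which 9 lay in reproducible peaks and 8 in the E(spl) complex. With exactly 17 bases between them the arms held 7. 6 of these lay in reproducible peaks, 5 in the E(spl) group, and the remaining one at *CG11191*, in a peak that overlapped neither replicate list. The seventh pair stood by *E(spl)m7-HLH*, 26036369 to 26036401, between 2 peaks. Windows of 1551 bp holding any facing pair made up 0.720% of reproducible peaks, against 0.0255% of tiles.

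**Figure D5:**
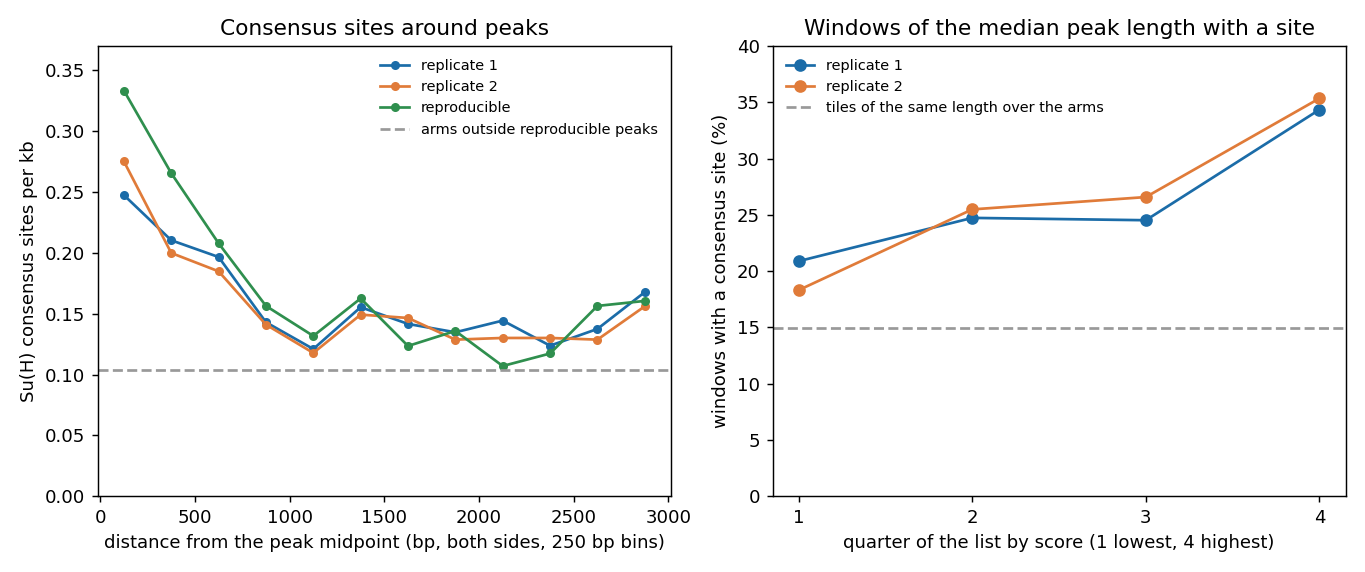
Density of Su(H) consensus sites per kb by distance from the peak midpoint in bp, and share of 1551 bp windows with a site by score quartile. Density in reproducible peaks is 0.333 per kb next to the midpoint against 0.104 per kb outside peaks.

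The Su(H)-Dam lists were set against those of Ey-Dam, which shared the Dam-alone controls. The lists held 1455 and 1461 Su(H) peaks and 1470 and 1509 Ey peaks. Median scores were 3.22 and 2.96 for Su(H)-Dam and 5.14 and 4.42 for Ey-Dam, a difference of means of -1.69, and the groups did not overlap. Median lengths were 1428 and 1333 bp for Su(H)-Dam and 1621 and 1344 bp for Ey-Dam, and 1.81% and 1.77% of the arms were covered, against 2.09% and 1.89%. Exact 2-sided permutation tests over the 4 lists gave p = 0.333 for number, score and covered share and 0.667 for length, and 0.444 and 0.667 after Benjamini-Hochberg adjustment over the 4 measures. With 2 against 2 lists, 0.333 is the smallest p that can be reached, so no difference could pass 0.05.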

How the data were processed

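DamID libraries were made from optic lobe DNA cut with DpnI, ligated to adaptors, cut with DpnII, amplified and sequenced. Using the damidseq pipeline with bowtie2, the authors mapped reads to dm6 and formed log2 ratios over Dam alone, then ran find_peaks on each replicate, keeping false discovery rates under 0.01. The score deposited for each peak (column 6 of the lists) was used unchanged, as were the deposited IDR scores of the reproducible list, made from peaks at under 0.1 with an IDR threshold of 0.05. Which Dam-alone library was paired with which fusion is not given in the sources used here, and read depth per fragment was not analysed here, so no interval rests on counts.

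Peaks were joined to Ensembl 115 genes without transposable elements (18164 genes), at 1000 bp. Overlap meant at least 1 shared base. Sites, GATC fragments and sequences were read from the Release 6 (dm6) assembly of RefSeq. Computations used pandas 2.3.3 and numpy 2.4.6 in Python 3.11.15, tests scipy 1.17.1, and plots matplotlib 3.10.9. Scripts were tested on simulated peaks. Genes and peaks named were those with the highest scores, lengths or peak counts, the members of the 13 lists, and those of single comparisons. The members and lists were chosen with earlier results of these data known. BobB and BobC had no match in the annotation. Replicates were libraries of separate pools of brains.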

Additional observations from a re-analysis of the deposited data

How the results depend on the processing

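Of 30 alternatives, 12 were labelled as leaving a result in place, 18 as moving it and 0 as reversing it. These labels do not measure the size of a change. The gene count of 992 was labelled in place at 735 (distance of 0 bp) and at 1410 (replicate 1 list alone). The share of replicate 1 peaks that overlap replicate 2 was 85.2%, against 83.2% counted from replicate 2 and 78.3% between the peaks above each list's median score. The count of genes within 1000 bp was 992, against 1816 within 5000 bp and 1410 to 1494 from a single replicate list. Intronic midpoints made up 45.4%, against 45.4% to 46.9% from single lists. Peaks with a transcript start made up 29.5%, against 47.1% with a start within 1000 bp, 22.7% with protein-coding genes only and 29.8% to 30.8% from single lists. Peaks in groups of 3 or more made up 30.04%, against 20.2% at a gap of 5000 bp, 41.2% at 20000 bp and 33.1% to 35.6% from single lists. The density on X over the autosomal arms was 1.01, against 0.925 by bases covered, 1.18 per annotated gene and 1.02 to 1.07 from single lists. Consensus density inside over outside peaks was 2.29, against 2.11 outside exons and 2.01 to 2.04 from single lists. The single-list values use the stricter peaks of the other replicate, since leaving out a library leaves no reproducible list. The cause of each shift was not tested.

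No paired analysis was possible because each list holds 1 replicate of 1 fusion and the pairing of libraries with the Dam-alone controls is not stated. With 2 libraries a group, differences between fusions cannot pass a threshold of 0.05, and without read counts the precision of a single score is unknown. Resolution is that of GATC fragments, and binding in other cells of the driver cannot be told apart from binding in neuroblasts.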
